A study of Rattus norvegicus with 60 samples.

Results

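The genes described here were the core Bcl2 family genes that set the balance between survival and death of a cell, followed through the brain of rats given a mood stabiliser. The 8 genes Bcl2, Bcl2l1, Mcl1, Bax, Bak1, Bad, Bid and Bcl2l11 were chosen by name, by a rule that uses no measured value but was set with earlier results of these data known, and every probe set that the array annotation assigns to 1 of these symbols and to no other was taken. This gave 13 of the 31042 probe sets tested, for 7 of the 14217 genes with a probe set of their own. Bax was not analysed here, because its probe set also carries another symbol. RNA was measured on 60 Affymetrix arrays, 5 for each of 12 groups, in the hippocampus, the cortex and the striatum of rats of the strain SD after 21 days of treatment. The LiCl group ate chow with 0.2% lithium chloride and the chow vehicle group ate plain chow. The lamotrigine group received 30 mg/kg under the skin once a day and the injection vehicle group received injections without the drug. Age and sex, and any step shared by all groups beyond the dissection of snap-frozen tissue, are not given here. One label calls the tissue mouse, and another describes constant delivery, where the organism, strain, array and design give rat and daily injection. The descriptions carry numbers read as 24 animals, so arrays of different regions partly came from the same animals.

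Proteins of this family meet at the outer membrane of the mitochondrion. Bak1 and Bax open pores that let cytochrome c out and start the caspases, Bcl2, Bcl2l1 and Mcl1 hold them back, and the BH3-only proteins Bad, Bid and Bcl2l11 (Bim) tip the balance towards death by binding the one kind or the other. In neurons Bcl2l1 (as Bcl-xL) and Mcl1 are known guardians, Mcl1 being a protein with a very short life whose destruction is marked by the kinase GSK3, an enzyme that lithium inhibits. Bcl2 is the member most often discussed as a target of lithium. Lamotrigine blocks voltage-gated sodium channels.

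The promoters of the 3 genes on which the results turned, Mcl1 for the treatments and Bcl2l11 and Bid for the regions, are shown from 250 bases before the annotated start up to the start (RefSeq, build GRCr8, strand of the gene). All 7 member genes had an entry. Capitals mark matches, on either strand, to the core of the cAMP response element (TGACG, in 18.2% of the 33469 rat promoters of this length), the FOXO site (GTAAACA, 3.21%), the GC box (GGGCGG, 30.5%) and the CCAAT box (CCAAT, 34%). The TATA box (TATAAA, 12.9%) and the full cAMP response element (TGACGTCA, 1.59%) were searched as well and had no match in these 3. No matches overlapped.
Mcl1, chr2:185907918-185908167, + strand: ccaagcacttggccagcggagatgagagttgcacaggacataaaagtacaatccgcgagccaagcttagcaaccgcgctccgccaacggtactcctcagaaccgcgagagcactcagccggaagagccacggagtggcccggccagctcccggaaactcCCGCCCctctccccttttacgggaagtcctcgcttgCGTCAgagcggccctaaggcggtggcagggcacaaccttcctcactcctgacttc
Bcl2l11, chr3:135819792-135820041, + strand: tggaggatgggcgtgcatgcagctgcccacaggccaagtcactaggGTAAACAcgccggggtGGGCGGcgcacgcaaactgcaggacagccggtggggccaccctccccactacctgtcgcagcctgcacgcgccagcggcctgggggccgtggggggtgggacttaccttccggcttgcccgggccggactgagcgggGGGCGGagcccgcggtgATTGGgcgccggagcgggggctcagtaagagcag
Bid, chr4:155808320-155808569, - strand: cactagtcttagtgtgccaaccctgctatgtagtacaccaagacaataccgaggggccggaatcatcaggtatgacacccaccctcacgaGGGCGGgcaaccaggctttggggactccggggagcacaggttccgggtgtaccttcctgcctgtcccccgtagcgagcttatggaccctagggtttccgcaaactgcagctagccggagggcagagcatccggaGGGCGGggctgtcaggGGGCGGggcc
The 3 windows had a GC content of 62%, 72% and 62.8%, against a median of 51.2% over all promoters. Mcl1 held 1 core of the cAMP response element, 51 to 55 bases before the start, and 1 GC box. Bcl2l11 held a FOXO site 198 to 204 bases before the start, with 2 GC boxes and 1 CCAAT box. Bid held 3 GC boxes. Of the other members, Bad had a FOXO site, Bak1 a GC box, Bcl2l1 a CCAAT box in 2 of its 4 entries, and Bcl2 a TATA box. These are matches of letters and no binding was measured.

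Levels are given as log2 of the deposited intensity, and brightness was not compared between probe sets. The 13 probe sets lay between 3.37 and 9.63 over all arrays. Each gene is described first by its brightest probe set. The means of these over 60 arrays were 9.25 for Bad, 8.71 for Bcl2l1, 8.56 for Mcl1, 6.55 for Bid, 6.03 for Bcl2l11, 5.47 for Bak1 and 4.68 for the only Bcl2 probe set. The values came without a measure of detection, so whether the dimmest of these, such as Bcl2l11 1387338_s_at with a mean of 3.56, lay above background was not tested. The same limit holds for Bcl2, Bcl2l1 1369180_at and Bcl2l11 1370787_at. Only 21.8%, 25.9% and 26.2% of all probe sets were as dim as these or dimmer.

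**Figure D1:**
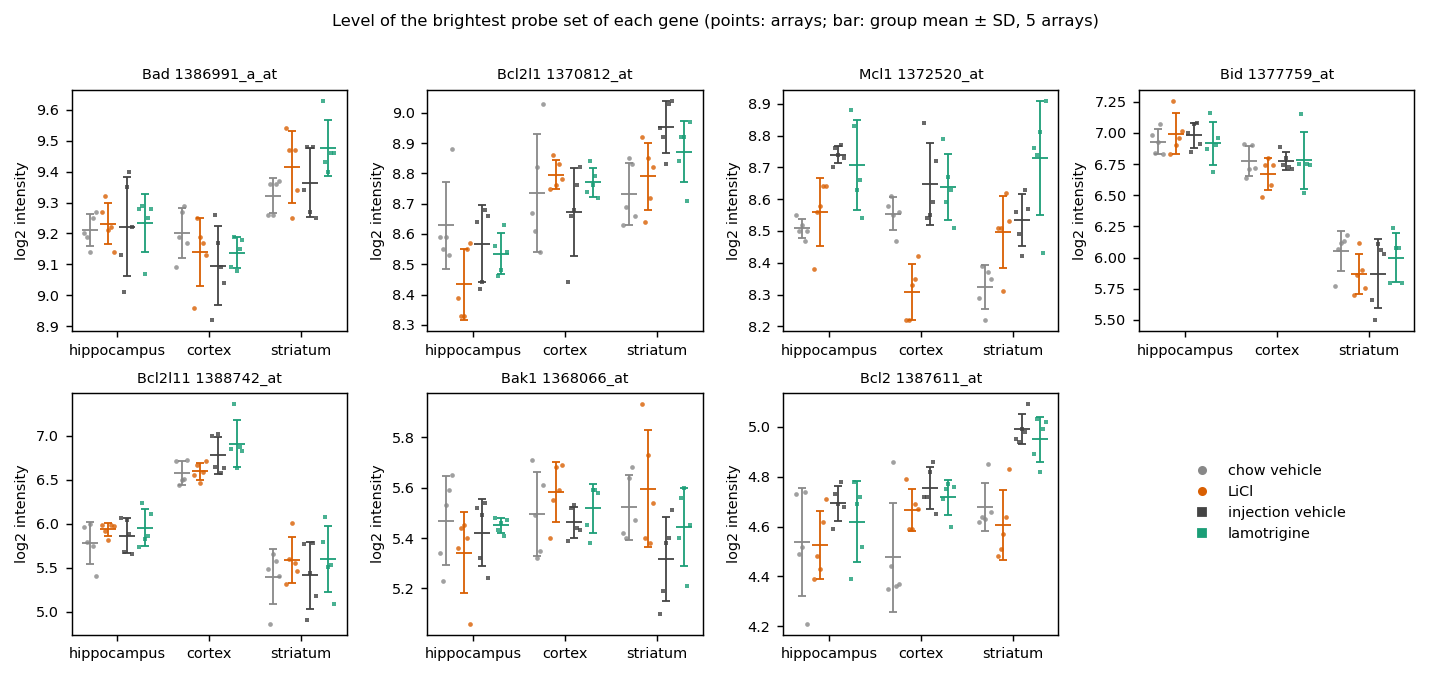
Log2 intensity (vertical axis) of the brightest probe set of each of 7 genes in the 3 regions, each point 1 array and each bar the group mean ± SD of 5 arrays, by treatment. Bid (between 5.50 and 6.24 in the striatum) and Bcl2l11 (between 6.44 and 7.36 in the cortex) separate the regions, while the treatments within a region mostly overlap.

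Arrays were of similar brightness, with median intensities between 93.8 and 101, and the regions carried their labels' markers. The mean of the striatal neuron list had a median of 11.93 in the striatum, against 6.85 in the hippocampus and 7.16 in the cortex, and the lists of cortical and hippocampal neurons were highest in their own regions. 9 arrays lay more than 1 above their region's median for genes of the choroid plexus, the tissue that makes cerebrospinal fluid, at up to 9.26. They are 1 LiCl and 2 injection vehicle arrays of the hippocampus, 1 injection vehicle array of the cortex, and 2 LiCl, 1 injection vehicle and 2 lamotrigine arrays of the striatum. The spread of the log2 values over probe sets, as their interquartile range, also moved with group. It was 3.29 to 3.44 in the cortex LiCl arrays and 3.56 to 3.61 in their chow vehicle arrays. In tissue of mixed cells, fewer cells of a type and less RNA per cell cannot be told apart.

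Between regions, the BH3-only genes Bcl2l11 and Bid differed most. Among the vehicle arrays (10 per region, chow and injection weighted alike) Bcl2l11 was highest in the cortex and Bid was lowest in the striatum, while Bcl2, Bcl2l1 and Bad were slightly higher in the striatum and Mcl1 slightly lower there. Of the 13 probe sets, 7 differed between striatum and cortex (4 higher, 3 lower in the striatum), 9 between striatum and hippocampus (5 higher, 4 lower) and 3 between hippocampus and cortex (1 higher, 2 lower in the hippocampus). Over all probe sets the shares called at an adjusted p under 0.05 were 55.9%, 50.9% and 42.4%, so differences between regions were common on the array as a whole. Differences come from limma across all probe sets and 60 arrays, with animal number as a random block, and are given ± SE on the log2 scale.

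Bcl2l11 encodes Bim, which binds all the protective members. Its brightest probe set (1388742_at) ranged in the vehicle arrays from 6.44 to 7.02 in the cortex (median 6.64), from 5.40 to 6.07 in the hippocampus (median 5.83) and from 4.86 to 5.78 in the striatum (median 5.46). No cortical array overlapped with an array of another region, and hippocampus and striatum overlapped. The striatum was lower than the cortex by a log2 difference of -1.27 ± 0.10 (2.41-fold, adjusted p = 4.69e-17) and lower than the hippocampus by -0.42 ± 0.10 (adjusted p = 0.000327). The hippocampus was lower than the cortex by -0.85 ± 0.10 (1.81-fold, adjusted p = 1.84e-10). With the 9 arrays of high choroid plexus signal left out these differences were -1.22, -0.30 and -0.92, and each was still called. In the drug groups, whose means did not enter these differences, the order was the same: LiCl and lamotrigine groups of the cortex had means of 6.60 and 6.91, those of the hippocampus 5.93 and 5.96, and those of the striatum 5.58 and 5.60. The other Bcl2l11 probe sets did not show this order. For 1370787_at the striatum minus cortex difference was 0.05 ± 0.05 (95% confidence interval -0.06 to 0.16), and for 1387338_s_at it was -0.03 ± 0.04 (-0.11 to 0.05).

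Bid is the member that caspases cut to carry a death signal from the cell surface to the mitochondrion. Its brightest probe set (1377759_at) ranged from 6.83 to 7.08 in the hippocampus (median 6.96), from 6.64 to 6.91 in the cortex (median 6.74) and from 5.50 to 6.18 in the striatum (median 6.06) of vehicle arrays. The striatum did not overlap with either other region, also when all 20 arrays per region were taken (at most 6.24 in the striatum, at least 6.49 in the cortex). It was lower than the hippocampus by -0.99 ± 0.07 (1.98-fold, adjusted p = 1.56e-18) and lower than the cortex by -0.81 ± 0.07 (1.76-fold, adjusted p = 1.84e-15). The hippocampus was above the cortex by 0.18 ± 0.07 (adjusted p = 0.0345), a call that was lost when the arrays of high choroid plexus signal were left out (0.15, adjusted p = 0.107) and without any 1 of 9 of the 20 arrays. The other Bid probe set (1369683_at) was lower in the striatum than in the hippocampus by -0.28 ± 0.08 (adjusted p = 0.00200), and its striatum minus cortex difference was -0.14 ± 0.08 (adjusted p = 0.117).

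**Figure D2:**
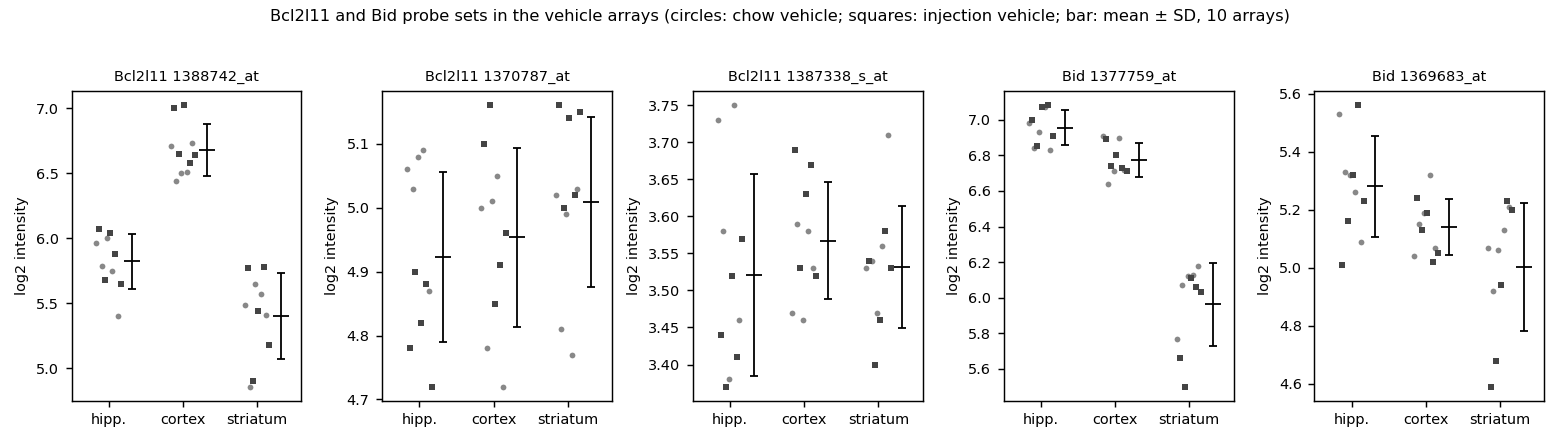
Log2 intensity (vertical axis) of the 3 Bcl2l11 and 2 Bid probe sets in the vehicle arrays of the hippocampus (hipp.), cortex and striatum, each point 1 array and each bar the mean ± SD of 10 arrays. Bcl2l11 1388742_at is highest in the cortex (6.44 to 7.02), Bid 1377759_at is lowest in the striatum (5.50 to 6.18), and Bcl2l11 1370787_at and 1387338_s_at do not separate the regions.

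The protective genes differed less between regions. Bcl2 was higher in the striatum (4.83 ± 0.18, SD, n = 10) than in the cortex (4.61 ± 0.21) by 0.22 ± 0.06 (adjusted p = 0.000664) and than in the hippocampus (4.62 ± 0.17) by 0.22 ± 0.06 (adjusted p = 0.000844). Its difference between hippocampus and cortex was 0.00 ± 0.06 (-0.11 to 0.11). The call against the cortex was lost with the interquartile range of each array as a covariate (0.16, adjusted p = 0.0570). Bcl2l1 (1370812_at) was at 8.84 ± 0.15 in the striatum, higher than in the hippocampus by 0.25 ± 0.05 (adjusted p = 2.05e-05) and than in the cortex by 0.14 ± 0.05 (adjusted p = 0.0132). The call against the cortex was lost without cortex injection vehicle replicate 1 (0.11, adjusted p = 0.0506). Mcl1 (1372520_at) went the other way, at 8.43 ± 0.13 in the striatum, by -0.17 ± 0.04 against the cortex (adjusted p = 0.000769) and by -0.20 ± 0.04 against the hippocampus (adjusted p = 0.000181). The other Mcl1 probe set (1370141_at) gave 0.02 ± 0.06 and -0.12 ± 0.06, neither of them called.

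Bad, which is held in check by phosphorylation downstream of growth factors, was higher in the striatum (9.34 ± 0.09) than in the cortex by 0.19 ± 0.04 (adjusted p = 9.02e-05) and than in the hippocampus by 0.13 ± 0.04 (adjusted p = 0.00893). Bak1, the pore former, gave differences between -0.06 and -0.02 over the 3 comparisons, with 95% intervals inside -0.19 to 0.11, and none was called. The dim Bcl2l1 probe set 1369180_at was higher in the striatum by 0.17 ± 0.06 against either region (adjusted p = 0.0133 and 0.0167), and 1370485_a_at was lower in the hippocampus than in the striatum (0.29 ± 0.10, adjusted p = 0.0127) and the cortex (-0.29 ± 0.10, adjusted p = 0.0164). The first of these lost both calls with quantile normalization (0.11 and 0.11) and with the interquartile range as a covariate (0.04 and 0.05). Its call against the hippocampus was also lost without hippocampus chow vehicle replicate 4 (adjusted p = 0.0537) and without the choroid plexus arrays (0.15, adjusted p = 0.0793). The call of 1370485_a_at between hippocampus and cortex was lost without hippocampus chow vehicle replicate 5 (-0.23, adjusted p = 0.056).

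Whether lithium changed the family was asked in each region against the chow vehicle, with limma over the 20 arrays of a region. In the cortex Mcl1 fell. It was the only member called there, 1 of 13 probe sets, where 13.4% of all probe sets were called. No member was called in the hippocampus (0.235% of all probe sets) or in the striatum (0%), and none was called for the effect averaged over the 3 regions (0.786%). At an unadjusted p under 0.05 these comparisons had 3, 2 and 0 of the 13, beside 15.5%, 12.3% and 13.9% of all probe sets.

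Mcl1 (1372520_at) in the cortex was at 8.22, 8.22, 8.33, 8.35 and 8.42 in the 5 LiCl arrays. In the 5 chow vehicle arrays it was at 8.58, 8.61, 8.55, 8.47 and 8.56. Every LiCl array lay below every chow vehicle array. The difference was -0.24 ± 0.06 (95% interval -0.38 to -0.11, 1.19-fold, adjusted p = 0.0189). The other Mcl1 probe set (1370141_at) was at 6.55, 6.73, 6.58, 6.83 and 6.76 with LiCl and at 6.88, 6.92, 7.02, 6.91 and 6.97 with chow vehicle. These groups did not overlap either, with a difference of -0.25 ± 0.09 (-0.43 to -0.07) that missed the threshold (adjusted p = 0.0554).

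The spread of values differed between the same arrays, as given above. With that spread as a covariate the Mcl1 difference was -0.35 (adjusted p = 0.346), and no probe set of the array was called in this comparison. The spread did not overlap between these groups, so the fit with the covariate cannot separate it from the treatment. With quantile normalization the Mcl1 difference was -0.14 (adjusted p = 0.255). Without cortex LiCl replicate 1 the adjusted p was 0.051, and without any other array of these groups it stayed under the threshold. Markers moved as well. Of 6 neuronal genes 2 fell and 0 rose (median difference -0.19), of 5 cortical neuron genes 3 fell and 0 rose (median -0.37), and of 8 choroid plexus genes 2 rose and 0 fell (median 0.26). All 8 microglia genes (median 0.16), all 5 oligodendrocyte genes (0.18) and all 5 endothelial genes (0.13) had positive differences, none of them called. Of 9 meningeal genes 8 lay above 0 (median 0.35), with 1 called higher and 1 lower. Of 6 hippocampal neuron genes 2 rose and 2 fell, and 1 of 7 striatal neuron genes rose. Their part in the result was not tested.

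Bcl2 in the cortex was at 4.79, 4.59, 4.59, 4.69 and 4.67 with LiCl. With chow vehicle it was at 4.35, 4.44, 4.86, 4.36 and 4.37. Apart from chow vehicle replicate 3 at 4.86, the LiCl arrays lay above the chow vehicle arrays. The difference was 0.19 ± 0.09 (0.01 to 0.37, adjusted p = 0.147), and without that replicate it was 0.28 (adjusted p = 0.0216). Without any other 1 array of these groups it was not called, with values down to 0.16 and adjusted p up to 0.284. In the hippocampus the LiCl minus chow vehicle difference of Bcl2 was -0.01 ± 0.10 (-0.21 to 0.19) and in the striatum -0.07 ± 0.07 (-0.22 to 0.08). Averaged over regions it was 0.04 ± 0.05 (-0.06 to 0.15, adjusted p = 0.789).

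For the other members no LiCl difference was called, though some were as large as that of Mcl1 in the cortex. Bcl2l1 (1370812_at) gave -0.20 ± 0.07 in the hippocampus (-0.35 to -0.04, adjusted p = 0.216), 0.06 ± 0.08 in the cortex and 0.06 ± 0.07 in the striatum. Bcl2l11 (1370787_at) gave the lowest adjusted p of the hippocampus, 0.121, at -0.24 ± 0.07, while its brightest probe set (1388742_at) gave 0.15 ± 0.12 there. Bid gave -0.18 ± 0.13 (1377759_at) and -0.30 ± 0.11 (1369683_at) in the striatum, with adjusted p of 0.550 and 0.306. For the second of these the groups did not overlap, with LiCl at 4.61 to 4.87 and chow vehicle at 4.92 to 5.21. Bad lay between -0.06 and 0.10 and Bak1 between -0.13 and 0.09 over the regions. Over all 13 probe sets the differences ran from -0.24 to 0.15 in the hippocampus, from -0.25 to 0.23 in the cortex and from -0.30 to 0.30 in the striatum, with medians of 0.0239, 0.0276 and 0.0405 beside medians of 0.000699, -0.00115 and -0.0176 over all probe sets.

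**Figure D3:**
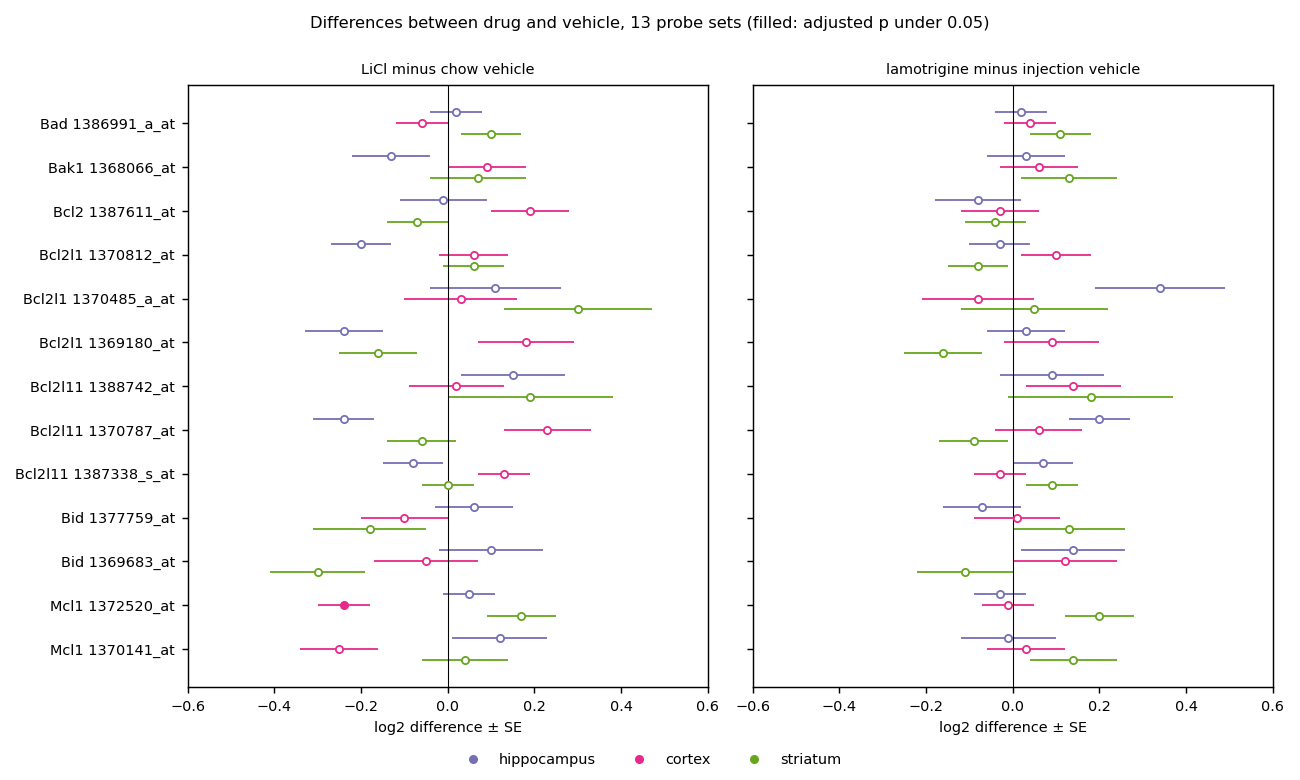
Log2 difference ± SE (horizontal axis) of 13 probe sets between LiCl and chow vehicle (left) and between lamotrigine and injection vehicle (right), by region, filled points having an adjusted p under 0.05. Mcl1 1372520_at in the cortex with LiCl (-0.24 ± 0.06) is the 1 filled point, and the largest open point with lamotrigine is Bcl2l1 1370485_a_at in the hippocampus (0.34 ± 0.15).

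An F test over the 60 arrays asked whether LiCl acted differently in the 3 regions. It did for 3 of 13 member probe sets, where 17.2% of all probe sets were called. For Mcl1 (1372520_at) LiCl minus chow vehicle was -0.24 in the cortex, 0.05 ± 0.06 in the hippocampus and 0.17 ± 0.08 in the striatum (adjusted p = 0.00202). For Bcl2l11 (1370787_at) it was 0.23 ± 0.10 in the cortex, -0.24 ± 0.07 in the hippocampus and -0.06 ± 0.08 in the striatum (adjusted p = 0.00599). For Bcl2l1 (1369180_at) it was 0.18 ± 0.11, -0.24 ± 0.09 and -0.16 ± 0.09 in the same order (adjusted p = 0.0192). The brightest probe sets of Bcl2l11 and Bcl2l1 were not called. For Bcl2l11 (1388742_at) LiCl minus chow vehicle was 0.02 ± 0.11 in the cortex, 0.15 ± 0.12 in the hippocampus and 0.19 ± 0.19 in the striatum. For Bcl2l1 (1370812_at) it was 0.06 ± 0.08, -0.20 ± 0.07 and 0.06 ± 0.07 in the same order. The F test does not say which regions differ from each other. All 3 calls were lost with quantile normalization (adjusted p = 0.0952, 0.137 and 0.262) and with the interquartile range as a covariate (0.418, 0.887 and 0.985). With quantile normalization another Bcl2l1 probe set (1370812_at) was called in their place (adjusted p = 0.00840). The last was also lost without the animal block (0.0507) and without cortex LiCl replicate 1 or 3 or cortex chow vehicle replicate 4. Of Bcl2, the same test gave an adjusted p of 0.170.

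Lamotrigine was compared with its injection vehicle in the same way. No member was called in the hippocampus (0.00322% of all probe sets called), the cortex (0%) or the striatum (0%), nor for the averaged effect (0.119%) or for the difference between regions (0%). At an unadjusted p under 0.05 these comparisons had 2, 0, 1, 0 and 2 of the 13, beside 9.87%, 5.80%, 3.84%, 7.70% and 5.52% of all probe sets. Mcl1 (1372520_at) in the striatum was at 8.76, 8.74, 8.81, 8.43 and 8.91 with lamotrigine and at 8.56, 8.49, 8.42, 8.63 and 8.57 with injection vehicle. Of the lamotrigine arrays, 4 lay above every vehicle array and 1 did not, and the difference was 0.20 ± 0.08 (0.03 to 0.36, adjusted p = 0.997). In the hippocampus and the cortex this probe set gave -0.03 ± 0.06 and -0.01 ± 0.06.

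Bcl2l1 (1370485_a_at) and Bcl2l11 (1370787_at) gave 0.34 ± 0.15 and 0.20 ± 0.07 with lamotrigine in the hippocampus, with adjusted p of 0.450 and 0.347. The brightest probe sets of these genes gave -0.03 ± 0.07 (Bcl2l1, 1370812_at) and 0.09 ± 0.12 (Bcl2l11, 1388742_at) there. Bcl2 gave -0.08 ± 0.10 (-0.28 to 0.13) in the hippocampus, -0.03 ± 0.09 (-0.22 to 0.15) in the cortex and -0.04 ± 0.07 (-0.19 to 0.11) in the striatum. Bid and Bak1 (1377759_at and 1368066_at) stayed between -0.07 and 0.13 in the 3 regions and Bad between 0.02 and 0.11.

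Within each region more members were called between the vehicle groups than for either drug, as were more probe sets of the array as a whole. Animals injected each day with vehicle had more Mcl1 RNA than animals on plain chow in the hippocampus and the cortex, and more Bcl2 in the cortex and the striatum. In the hippocampus 4 of 13 member probe sets were called (18.5% of all probe sets), in the cortex 2 (18.9%) and in the striatum 2 (6.83%). In the cortex members were thus called no more often than probe sets of the whole array. The delivery arms differ by injection and may differ by other steps of handling, which cannot be told apart here. The chow vehicle and injection vehicle arrays also serve as controls of the drug comparisons, so the values are given side by side and no overlap is drawn from them.

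Mcl1 (1370141_at) in the hippocampus was at 7.68, 7.38, 7.55, 7.72 and 7.53 with injection vehicle and ranged from 6.63 to 7.17 (median 6.95) with chow vehicle. The groups did not overlap and differed by 0.67 ± 0.11 (0.45 to 0.89, 1.59-fold, adjusted p = 0.000103). In the cortex this probe set rose by 0.32 ± 0.09 (adjusted p = 0.0117), again with no overlap (7.17 to 7.36 against 6.88 to 7.02). In the striatum it gave 0.24 ± 0.10 (adjusted p = 0.158). For 1370141_at lamotrigine arrays stood with the other injected arrays, at 7.28 to 7.71 in the hippocampus, and LiCl arrays with the other chow arrays, at 6.76 to 7.17. The brighter probe set (1372520_at) rose by 0.23 ± 0.06 in the hippocampus (adjusted p = 0.0116), where injection vehicle lay at 8.70 to 8.77 and chow vehicle at 8.47 to 8.55. With this probe set the lamotrigine arrays (8.54 to 8.88) and LiCl arrays (8.38 to 8.64) of the hippocampus overlapped. Between the vehicle groups it gave 0.09 ± 0.06 in the cortex and 0.21 ± 0.08 in the striatum (adjusted p = 0.354 and 0.117). In the striatum its vehicle groups did not overlap (8.42 to 8.63 against 8.22 to 8.39).

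In the hippocampus the spread of values was 3.55 to 3.64 with injection vehicle and 3.43 to 3.56 with chow vehicle. With it as a covariate the Mcl1 differences there were 0.56 (adjusted p = 0.0862) and 0.29 (0.148). These ranges hardly overlapped, so that fit separates spread from delivery poorly, and 3.96% of all probe sets were called in it. In the cortex the difference of 1370141_at was 0.30 (0.0234) under the same covariate. With the arrays of high choroid plexus signal left out, 2 of which are hippocampal injection vehicle arrays, both hippocampal Mcl1 differences were still called (0.64 and 0.24). Quantile normalization left 1370141_at called in the hippocampus (0.61) and took the call of 1372520_at (0.17, adjusted p = 0.0644). Of the marker lists in the hippocampus, 3 of 8 microglia genes rose and 2 of 5 endothelial genes fell. Of 6 neuronal genes 2 rose and 1 fell. In the lists of hippocampal neurons, cortical neurons, oligodendrocytes and astrocytes 1 gene each rose, and 1 of 7 striatal neuron genes fell. All 5 oligodendrocyte genes and all 6 astrocyte genes lay above 0. Of 8 choroid plexus genes 0 were called (median 0.52, 7 above 0). In the cortex, where Mcl1 and Bcl2 were called, 2 of 5 cortical neuron genes rose and 3 fell (median -0.37). There 1 of 6 neuronal genes, 1 of 8 microglia genes and 1 of 5 endothelial genes rose. Of 6 hippocampal neuron genes and 6 astrocyte genes 1 each fell, and 0 of 8 choroid plexus genes were called (median 0.20). In the striatum, where Bcl2 and Bcl2l1 were called, 1 of 5 cortical neuron genes rose, 1 of 5 endothelial genes fell and 0 of 8 choroid plexus genes were called (median 0.60, 8 above 0). Their part in these results was not tested.

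**Figure D4:**
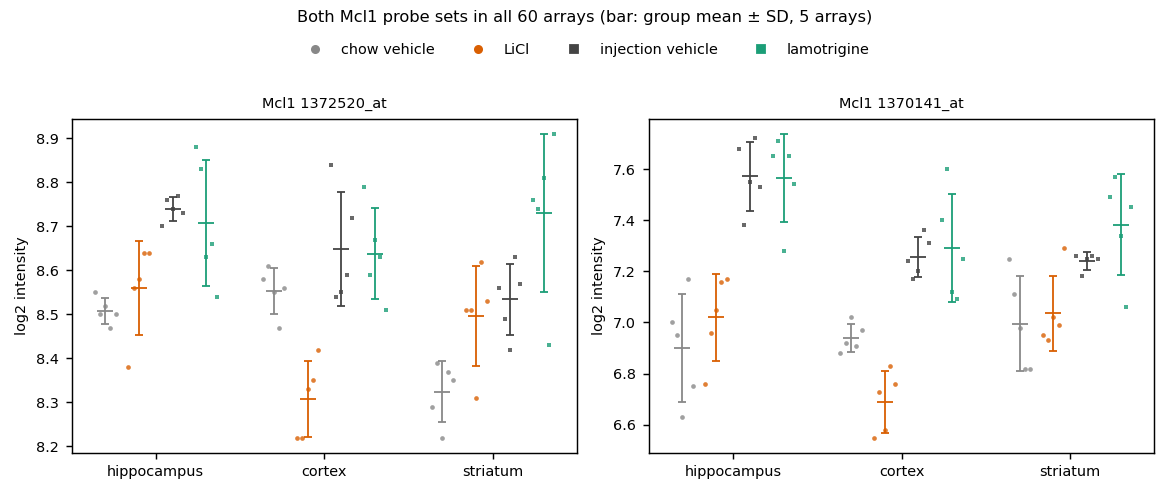
Log2 intensity (vertical axis) of both Mcl1 probe sets in the 3 regions, each point 1 array and each bar the group mean ± SD of 5 arrays, by treatment. In the hippocampus the injected groups (squares) sit above the chow groups (circles) for 1370141_at, and in the cortex the LiCl arrays are the lowest for both probe sets.

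Bcl2 in the striatum was at 4.95, 4.94, 4.99, 4.98 and 5.09 with injection vehicle and at 4.62, 4.64, 4.63, 4.85 and 4.66 with chow vehicle. Every injected array was above every chow vehicle array, by 0.31 ± 0.07 on average (0.16 to 0.46, 1.24-fold, adjusted p = 0.0109). In the cortex Bcl2 rose by 0.28 ± 0.09 (adjusted p = 0.0279), with chow vehicle replicate 3 again inside the range of the injected arrays. That call was lost with arrays centred on their medians (0.24, adjusted p = 0.0563) and without any 1 of 6 arrays, namely injection vehicle replicate 3 or 4 or chow vehicle replicate 1, 2, 4 or 5. In the hippocampus the difference was 0.16 ± 0.10 (-0.05 to 0.36, adjusted p = 0.273).

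The remaining calls were close to the threshold. Bcl2l1 (1370812_at) rose in the striatum by 0.22 ± 0.07 (adjusted p = 0.0499), a call lost without any 1 of 8 of the 10 arrays (all but replicate 3 of each group). In the hippocampus Bcl2l1 (1369180_at) fell by 0.30 ± 0.09 on the log2 scale (adjusted p = 0.0258) and Bcl2l11 (1370787_at) fell by 0.21 ± 0.07 (adjusted p = 0.0443). The first was lost without injection vehicle replicate 3 or 5 or chow vehicle replicate 1 or 3, with quantile normalization (-0.23) and with the covariate (-0.09). The second was lost without any 1 of 8 arrays (all but injection vehicle replicate 2 and chow vehicle replicate 5), and with the spread as a covariate it turned to 0.02. The other probe sets of these genes were not called in the hippocampus. For Bcl2l1 the brightest (1370812_at) gave -0.06 ± 0.07 and 1370485_a_at gave 0.02 ± 0.15. For Bcl2l11 the brightest (1388742_at) gave 0.08 ± 0.12 and 1387338_s_at gave -0.12 ± 0.07. Bad, Bak1 and Bid were not called in any region, with differences between -0.21 and 0.05.

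**Figure D5:**
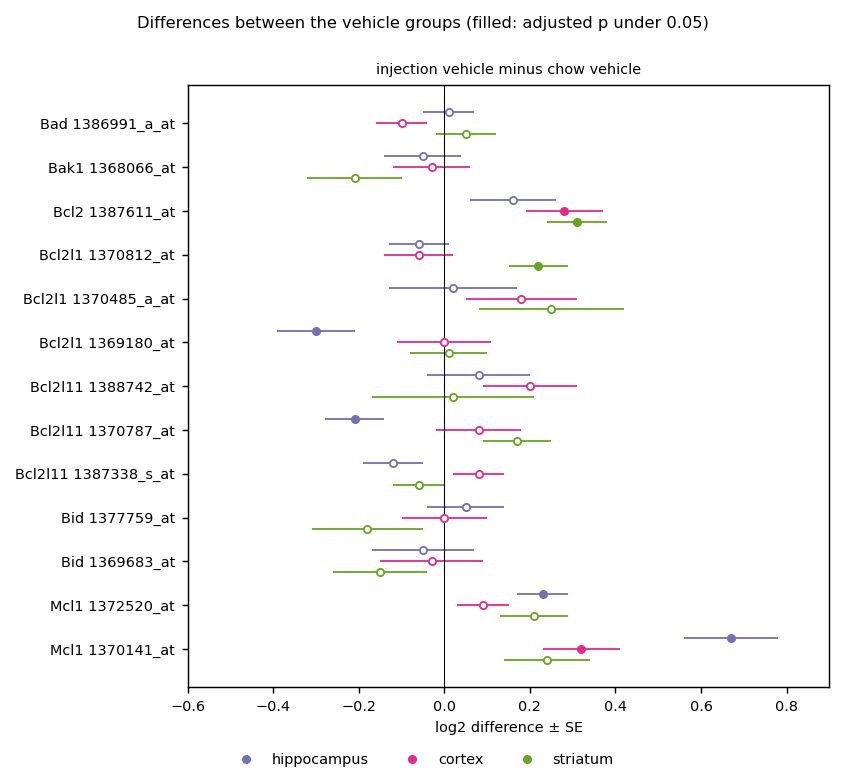
Log2 difference ± SE (horizontal axis) of 13 probe sets between injection vehicle and chow vehicle, by region, filled points having an adjusted p under 0.05. The largest is Mcl1 1370141_at in the hippocampus (0.67 ± 0.11), and Bcl2 lies between 0.16 and 0.31 in all regions.

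The wider pathway was followed with 3 lists, 1 probe set per gene: 15 measured other Bcl2 family genes, 18 genes of the apoptosome, caspases and inhibitors of apoptosis, and 29 partners and regulators of the family. With LiCl in the cortex 2 of 15, 4 of 18 and 5 of 29 were called, that is 13.3%, 22.2% and 17.2% beside 13.4% of all probe sets. The lists hold the brightest probe set of each gene, and with probe sets under the median brightness left out 20.4% of the rest were called. The median differences of the lists were 0.0901, -0.0189 and -0.0723. Of the family genes, the little studied Bcl2l14 rose by 0.46 ± 0.10 and the BH3-only gene Bik by 0.22 ± 0.06. Birc5 (survivin) rose by 0.45 ± 0.09 and Casp12 by 0.32 ± 0.08. Birc2, an inhibitor of apoptosis, fell by 0.34 ± 0.08 and Aifm1, a mitochondrial factor released in death, fell by 0.22 ± 0.07. The 5 partners all fell: the growth factor Bdnf by 0.47 ± 0.10, the transcription factor Creb1 by 0.39 ± 0.10, Ddit3 (CHOP) by 0.30 ± 0.07, the kinase Mapk9 by 0.28 ± 0.07 and the transcription factor Foxo3 by 0.27 ± 0.05. As for Mcl1, none of the 11 was called with the interquartile range as a covariate, and Aifm1 then turned to 0.01. No probe set of the array was called in that fit, which cannot separate the spread from LiCl. With quantile normalization Bdnf, Bcl2l14, Birc5 and Creb1 were still called. Bik and Aifm1 also lost their calls without any 1 of 5 and of 7 of the 10 arrays.

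In no other drug comparison within a region was a gene of these lists called. The LiCl effect differed between regions for 4 of 15, 4 of 18 and 6 of 29 (26.7%, 22.2% and 20.7%, beside 17.2% of all probe sets). These were Bcl2l14, Bik, Bcl2l10 and Bok of the family, Birc5, Aifm1, Casp12 and Fadd of the apoptosome list, and Creb1, Ddit3, Foxo3, Gsk3b, Bag1 and Vdac2 of the partners. The lowest adjusted p were those of Bcl2l14 (-0.34 in the hippocampus, 0.46 in the cortex and -0.13 in the striatum, adjusted p = 1.58e-05) and Birc5 (-0.27, 0.45 and -0.18, adjusted p = 4.60e-05). Gsk3b, the kinase named above, gave 0.17, -0.23 and 0.19 (adjusted p = 0.00527). Of the 14 genes 6 were called with quantile normalization, 9 without the choroid plexus arrays and 0 with the interquartile range as a covariate. Casp12 lost its call without cortex LiCl replicate 5 or cortex chow vehicle replicate 3, and Fadd without replicate 5 of either of these groups. Bag1 lost its call without any 1 of 13 of the 30 arrays and Vdac2 without any 1 of 20. For LiCl averaged over regions Birc2 fell by 0.27 ± 0.05 (adjusted p = 0.000905) and Bnip2 rose by 0.20 ± 0.05 (adjusted p = 0.0464), the latter lost when the choroid plexus arrays were left out (0.19, adjusted p = 0.128) and without any 1 of 22 of 30 arrays. Between the vehicle groups 13, 10 and 6 of the 29 partners were called in hippocampus, cortex and striatum (44.8%, 34.5% and 20.7%, beside 18.5%, 18.9% and 6.83% of all probe sets). With probe sets under the median brightness left out, 26.5%, 30.0% and 11.5% of the rest were called. Of the other family genes 2, 2 and 0 of 15 were called (13.3%, 13.3% and 0%), and of the apoptosome list 4, 5 and 2 of 18 (22.2%, 27.8% and 11.1%). Of the 62 measured genes of the lists, 6 were called in all 3 regions, beside 3.45% of all probe sets and 0 of the 13 members, a selection made after their values were seen. Creb1 rose by 1.02 ± 0.08, 0.64 ± 0.10 and 0.61 ± 0.12 in hippocampus, cortex and striatum. Foxo1 rose by 0.72 ± 0.09, 0.53 ± 0.12 and 0.75 ± 0.16. The caspase inhibitor Xiap rose by 0.32 ± 0.07, 0.38 ± 0.08 and 0.31 ± 0.06. Foxo3, the DNA-cutting enzyme Dffb and the dynein light chain Dynll2, which binds BH3-only proteins, fell in each region, by 0.25 to 0.28, 0.34 to 0.36 and 0.11 to 0.15. Calls of Dffb were lost without any 1 of 3 arrays in the hippocampus and of 4 in the striatum, and calls of Dynll2 without cortex chow vehicle replicate 1 and without any 1 of 5 arrays in the striatum. In the hippocampus Xiap, Dffb and Dynll2 were not called with the interquartile range as a covariate.

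After group means were removed, Bid (1377759_at) and Bcl2l11 (1388742_at) had a Pearson correlation of 0.521 over the 60 arrays, the Bid probe sets 0.584 and the Mcl1 probe sets 0.330. Mcl1 (1370141_at) had 0.411 with Bcl2l1 (1370485_a_at) and 0.400 with Bcl2l11 (1387338_s_at), and Bcl2 had 0.393 with Bcl2l1 (1370485_a_at). The Bcl2l1 probe sets had correlations between -0.0642 and 0.109 and the Bcl2l11 probe sets between -0.157 and 0.193, so probe sets of these 2 genes hardly varied together. By the same measure the closest genes outside the family were Myef2 and Syt13 for Bcl2 (0.546 and 0.542), Samd14 and Ccdc22 for Bcl2l1 (0.672 and 0.607), and Lrif1 and Cacybp for Mcl1 (0.690 and 0.662). They were Cln6 and Prkd3 for Bak1 (0.561 and 0.514), Dym and Ndufs3 for Bad (0.668 and 0.652), Uck2 and Rsrc1 for Bid (0.649 and 0.631) and Fgf12 and Ngb for Bcl2l11 (0.676 and 0.629). The points share arrays, animals and array quality, and these are the highest of all genes by selection.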

How the data were processed

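Per the labels, total RNA of microdissected regions was extracted with Trizol and hybridised as biotinylated cRNA to Affymetrix rat arrays, and the processing notes name RMA in R 2.7.2. The deposited values are RMA intensities on a linear scale (6.93 to 28582.4), although log2 values had been planned for, so log2 was taken with no pseudocount. Of 31099 probe sets, 57 controls were left out. Groups came from the labels. Each region was fitted with limma 3.58.1 in R 4.3.3 (4 groups, 20 arrays, moderated variances with an intensity trend). Region comparisons, averaged effects and tests between regions came from a fit of all 60 arrays with animal number as random block (correlation 0.133). P-values were two-sided and adjusted over 31042 probe sets by Benjamini-Hochberg, and a call means an adjusted p under 0.05. Nothing but these numbers says that samples of a group are separate animals, so p-values measure the spread between these samples. The fits were tested on simulated data with independent arrays and no difference in spread between groups. That test does not bear on shared animals or on the spread differences of the data. All member probe sets were named, genes of the pathway lists when called in a drug comparison, and 2 most correlated genes for each member. Members and lists were chosen with earlier results of these data known. Precision is limited by 5 arrays per group. Alternatives were quantile normalization, median centring, the interquartile range of each array as covariate, a replicate block, no dim probe sets, no trend, no animal block and each array left out. Leaving out arrays high in choroid plexus genes and exchanging the animal numbers of 2 striatum arrays were added after seeing the data.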

Additional observations from a re-analysis of the deposited data

Results flagged for a closer look

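In 13 of 156 groups of 5 arrays an array stood apart from the rest of its group (by the size of its gap to the others over the whole range), where chance gives about 1 in 20, or 7.8. For Bcl2 these were replicate 3 of the cortex chow vehicle (4.86 beside 4.35 to 4.44, 0.812) and replicate 4 of the striatum chow vehicle (4.85 beside 4.62 to 4.66, 0.802). For Bcl2l1 they were replicate 5 of the hippocampus chow vehicle (1370812_at, 8.88 beside 8.53 to 8.59, 0.816), replicate 4 of the cortex chow vehicle (1369180_at, 0.739) and replicate 5 of the cortex LiCl group (1370485_a_at, 0.728). For Mcl1 (1370141_at) they were replicate 5 of the striatum LiCl group (7.29 beside 6.93 to 7.02, 0.759) and replicate 2 of the striatum injection vehicle (7.18 beside 7.25 to 7.26, 0.798). For Bcl2l11 (1370787_at) they were replicate 5 of the cortex lamotrigine group (5.43 beside 4.94 to 4.98, 0.927) and replicate 5 of the hippocampus chow vehicle (0.728). The others were Bak1 in hippocampus LiCl replicate 5 (0.771), Bid (1377759_at) in striatum chow vehicle replicate 1 (0.720), and Bad in hippocampus lamotrigine replicate 3 (0.821) and striatum lamotrigine replicate 1 (0.765).

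The effect of LiCl differed between regions by an F test for Mcl1 (1372520_at, adjusted p = 0.00202), Bcl2l11 (1370787_at, 0.00599) and Bcl2l1 (1369180_at, 0.0192). These were 3 of 13 probe sets, where 17.2% of all probe sets were called. The brightest probe sets of Bcl2l11 and Bcl2l1 were not called in this fit. All 3 calls were lost with quantile normalization and with the interquartile range as a covariate.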

How the results depend on the processing

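Apart from leaving out single arrays, counts of called member probe sets stayed within 1.5 times in 105 cases and moved in 21. A count of 0 that stayed at 0 is among the unmoved cases. Between injection and chow vehicle in the hippocampus, 4 became 1 with quantile normalization, 0 with the spread covariate, and 2 without dim probe sets or without the arrays of high choroid plexus signal. For LiCl in the cortex, 1 became 0 with quantile normalization or the spread covariate, and 2 without dim probe sets or without the trend. Between the vehicles in the cortex, 2 became 1 with median centring or without dim probe sets. In the striatum, 2 became 1 with median centring, without dim probe sets, without the trend, without the choroid plexus arrays and with the replicate block. There Bcl2l1 (1370812_at) lost its call with the block (adjusted p = 0.0885), as did Dynll2 (0.0594), and the block changed no other call. At most 1 of 5 same-numbered pairs correlated above 0.1, so the numbers were not taken to pair samples. Without dim probe sets 4 to 6 members were tested, and 3, 3 and 1 differed between regions (striatum against cortex, striatum against hippocampus, hippocampus against cortex) and 1 in the LiCl effect between regions. The last count was 1 with quantile normalization and 0 with the spread covariate. With each array left out, the vehicle counts ran from 2 to 4 (hippocampus) and 1 to 2 (cortex and striatum), LiCl in the cortex from 0 to 2 (0 without LiCl replicate 1, 2 without LiCl replicate 4 or chow vehicle replicate 3), and the region counts from 6 to 7, 8 to 10 and 2 to 4, and 2 to 4 for LiCl between regions. All other drug counts stayed at 0.

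Signs turned for 2 called values with the spread covariate, Bcl2l11 (1370787_at) between the hippocampal vehicles (0.02) and Aifm1 with LiCl in the cortex (0.01). They also turned for uncalled values. With LiCl in the hippocampus these were Bid (-0.01 with the covariate), Bad (-0.02 with quantile normalization, -0.11 with the covariate) and Bcl2 (0.06 and 0.10, and from -0.09 to 0.04 with an array left out). With LiCl in the cortex they were Bad (0.04 and 0.02) and Bcl2l11 (-0.02 to 0.06 with an array left out), and in the striatum Bak1 (-0.01 to 0.13) and Mcl1 1370141_at (-0.02 to 0.10). With lamotrigine in the hippocampus they were Bak1 (-0.01 with quantile normalization, -0.02 to 0.06 with an array left out), Mcl1 1370141_at (0.05 with the covariate, 0.02 without choroid plexus arrays, -0.05 to 0.07 with an array left out), Bcl2l1 (0.07 with the covariate), Mcl1 1372520_at (-0.07 to 0.01) and Bad (-0.04 to 0.06). With lamotrigine in the cortex they were Mcl1 1372520_at (0.01 with quantile normalization, centring or without choroid plexus arrays, -0.05 to 0.04), Mcl1 1370141_at (-0.04 to 0.09) and Bid (-0.01 without choroid plexus arrays, -0.08 to 0.07). The cause was not tested.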
